A study of Homo sapiens with 12 samples.

Results

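The genes described are 9 members of the aryl hydrocarbon receptor (AhR) pathway and of the CYP1 family, out of 58735 genes in the count table, with 29789 detected in some library. They were selected by gene symbol: AHR, the receptor; ARNT, its partner; AHRR, its repressor; CYP1A1, CYP1A2, and CYP1B1, the 3 CYP1 enzymes; TIPARP, a feedback inhibitor; and NQO1 and ALDH3A1, 2 further enzymes of the xenobiotic response. All 9 symbols were present in the table. RNA sequencing was done on TIGK cells, an established line of keratinocytes from human gingiva that carries telomerase (hTERT). All 4 groups were kept at 48 mM glucose in a base medium that, per the methods, held no Arg. Arg-treated cells received 500 μM L-arginine for 24 or 48 h, and untreated control cells received none for the same times. Each group had 3 libraries, named replicates A, B, and C. The control was thus a culture without added Arg and not one at a usual Arg level, and the glucose level was the same in every library. The sources used here do not say whether the replicates came from separately grown cultures, so the p-values measure the spread between these libraries.

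AhR is a transcription factor that waits in the cytosol bound to HSP90 and moves to the nucleus when it binds a ligand, such as a dioxin, a polycyclic aromatic hydrocarbon, or a product of tryptophan metabolism. There it pairs with ARNT and binds a short DNA element, the xenobiotic response element (XRE), upstream of the CYP1 genes, which encode oxygenases that clear many of its ligands. AHRR and TIPARP are themselves induced and restrain the receptor, and in skin and oral epithelium the pathway is known for handling smoke constituents and microbial indoles and for its influence on keratinocyte differentiation.

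The libraries held 16542243 to 19040964 counts. The 5 basal keratinocyte markers were all present, with KRT5 between 24096 and 31666 CPM (counts scaled to the TMM-adjusted library size), while hepatocyte markers, which would accompany high CYP1A2, summed to at most 0.579 CPM. Of 6 fibroblast markers, 3 had a mean above 1 CPM, and the sum of the 6 was between 30.2 and 54.3 CPM at 24 h and between 72.6 and 102 CPM at 48 h. Control replicate B at 48 h stood apart from replicates A and C. In a chi-square comparison of counts within groups, the value per degree of freedom was 20.9 and 23.9 for its pairs and 3.66 to 12.5 for the other pairs of replicates. Its share of mitochondrially encoded counts was 1.55%, against 0.906% and 0.707% in the other 48 h controls and 1.14 to 1.31% in the 48 h Arg libraries. The sum of 5 markers of differentiated keratinocytes (KRT1, KRT10, KRT4, KRT13, and IVL) was 4556 CPM in this library, against 1994 and 1835 CPM in the other 48 h controls and 3524 to 4270 CPM in the 48 h Arg libraries. The members' results at 48 h are therefore given with and without this library. Without it, the 48 h controls and Arg libraries do not overlap in the mitochondrial share or in the sum of differentiation markers. In the results without this library, Arg and these measures cannot be told apart.

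The DNA upstream of the members is shown because it holds the letters that AhR and ARNT read. The reference sequence was searched on both strands, over 1500 bases before each RefSeq start, for the XRE core GCGTG, for the longer form TNGCGTG, which contains the core, and for the core of the antioxidant response element (ARE), TGACNNNGC, which NRF2 reads. RefSeq promoter entries (GRCh38.p14) existed for 7 of the 9 members, with 10 starts in all, and not for CYP1B1 or ALDH3A1. Over 35116 promoter entries, 72.9% held GCGTG at least once in this window, 23.2% held TNGCGTG, and 42.7% held TGACNNNGC, so that a single match is common. CYP1A1 had 10 GCGTG matches, 5 of them of the longer form, and 0.629% of all entries had as many or more. CYP1A2, its neighbor on the same chromosome, had 1. The following 2 windows of 200 bases are each written 5′ to 3′ on the strand of its gene, with GCGTG or its reverse complement CACGC in capitals. The first lies upstream of CYP1A1 (chr15:74726405-74726604, minus strand, positions −1076 to −877 from the start). Several overlapping windows there hold 3 matches, and those 3 nearest the start are shown. The second is the stretch of CYP1A2 that holds its only match (chr15:74748293-74748492, plus strand, positions −552 to −353 from the start).
CYP1A1: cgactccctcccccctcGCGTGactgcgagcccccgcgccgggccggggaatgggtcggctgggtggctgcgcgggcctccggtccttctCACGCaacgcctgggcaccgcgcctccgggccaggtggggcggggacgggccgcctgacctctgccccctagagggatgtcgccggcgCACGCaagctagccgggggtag
CYP1A2: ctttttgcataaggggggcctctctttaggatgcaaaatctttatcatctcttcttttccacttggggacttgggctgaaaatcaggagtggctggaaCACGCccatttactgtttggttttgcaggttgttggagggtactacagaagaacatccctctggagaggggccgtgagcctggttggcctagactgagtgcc

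All 3 matches in the CYP1A1 window were of the longer form, and the window lies upstream of the annotated gene. The longer form is printed with 10 bases on either side, with the match in capitals and read on the strand that carries it, for the 2 CYP1A1 matches outside that window, for AHRR, and for TIPARP. The last line is the ARE core upstream of NQO1, which lay at position −455, in a window of 1500 bases where 2 GCGTG matches were also found.
CYP1A1, position −1385 (chr15:74726897-74726923, plus strand): aaagttgtatTTGCGTGcctagctcaa
CYP1A1, position −503 (chr15:74726015-74726041, plus strand): gagtcccggcTCGCGTGagaagcgctg
AHRR, position −32 from the start at 321714 (chr5:321672-321698, plus strand): ggcgggcggcTCGCGTGccggggtggg
TIPARP, position −676 from the start at 156676664 (chr3:156675978-156676004, plus strand): gcgcgcgcgcTTGCGTGtgtacgcgca
NQO1, ARE core (chr16:69726997-69727025, minus strand): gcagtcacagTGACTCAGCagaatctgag

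The other members differed widely in their XRE cores. AHRR held 4 and 8 GCGTG matches before its 2 starts, TIPARP held 6, 6, and 2 before its 3 starts, ARNT held 5, and AHR held 0. Of the ARNT matches, 2 were of the longer form and are not printed. The ARE core was also found upstream of ARNT, at position −183, and of AHRR, at position −1419 from the start at 321714. The windows of starts that lie near each other overlap, so that some of these matches are the same bases. A match says only that the letters are present.

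**Figure D1:**
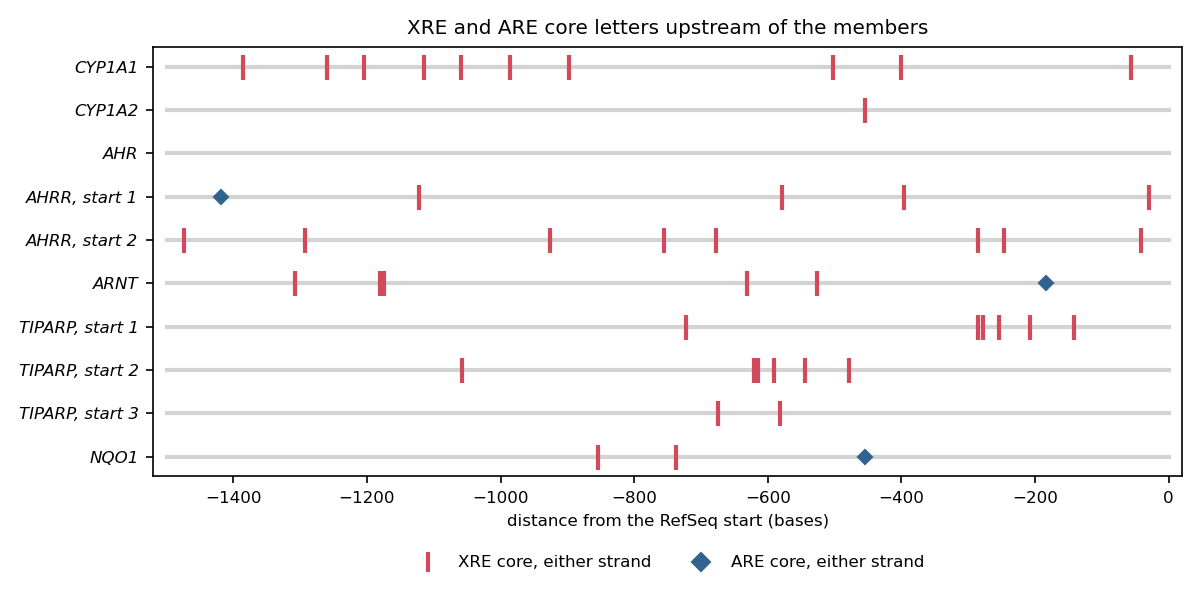
Positions of the XRE core GCGTG (red bars, either strand) and the ARE core TGACNNNGC (blue diamonds, either strand) in the 1500 bases before each RefSeq start of the 7 members with an entry, with the distance from the start in bases on the horizontal axis. CYP1A1 has 10 XRE cores spread over the window, CYP1A2 has 1, and AHR has 0.

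At 24 h, Arg treatment was accompanied by more CYP1A1, CYP1B1, and NQO1 RNA, while neither the receptor nor its repressor passed the test. CYP1A1 was 2.42-fold higher, CYP1B1 was 1.83-fold higher, and NQO1 was 1.39-fold higher with Arg. Among all genes tested, CYP1A1 had the smallest p of those higher with Arg, and CYP1B1 had the next. Of the 8 members tested at 24 h, these 3 passed an adjusted p of 0.05 in the higher direction, where 2.79% of the 14279 genes tested did. In the lower direction, 0 of the 8 passed in edgeR (1 at an unadjusted p under 0.05), where 3.84% of all genes did. DESeq2 called 0 members lower as well, where it called 645 genes lower. At an unadjusted p under 0.05, 4 members were higher, against 10.8% of all genes, and 1 was lower, against 11.9% of all genes. The members were chosen with earlier results of these data known, so these counts beside the shares are a description only. The tests were edgeR's quasi-likelihood tests with Benjamini-Hochberg adjustment over all genes tested, and each fold change below is on the log2 scale with its standard error (SE).

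**Figure D2:**
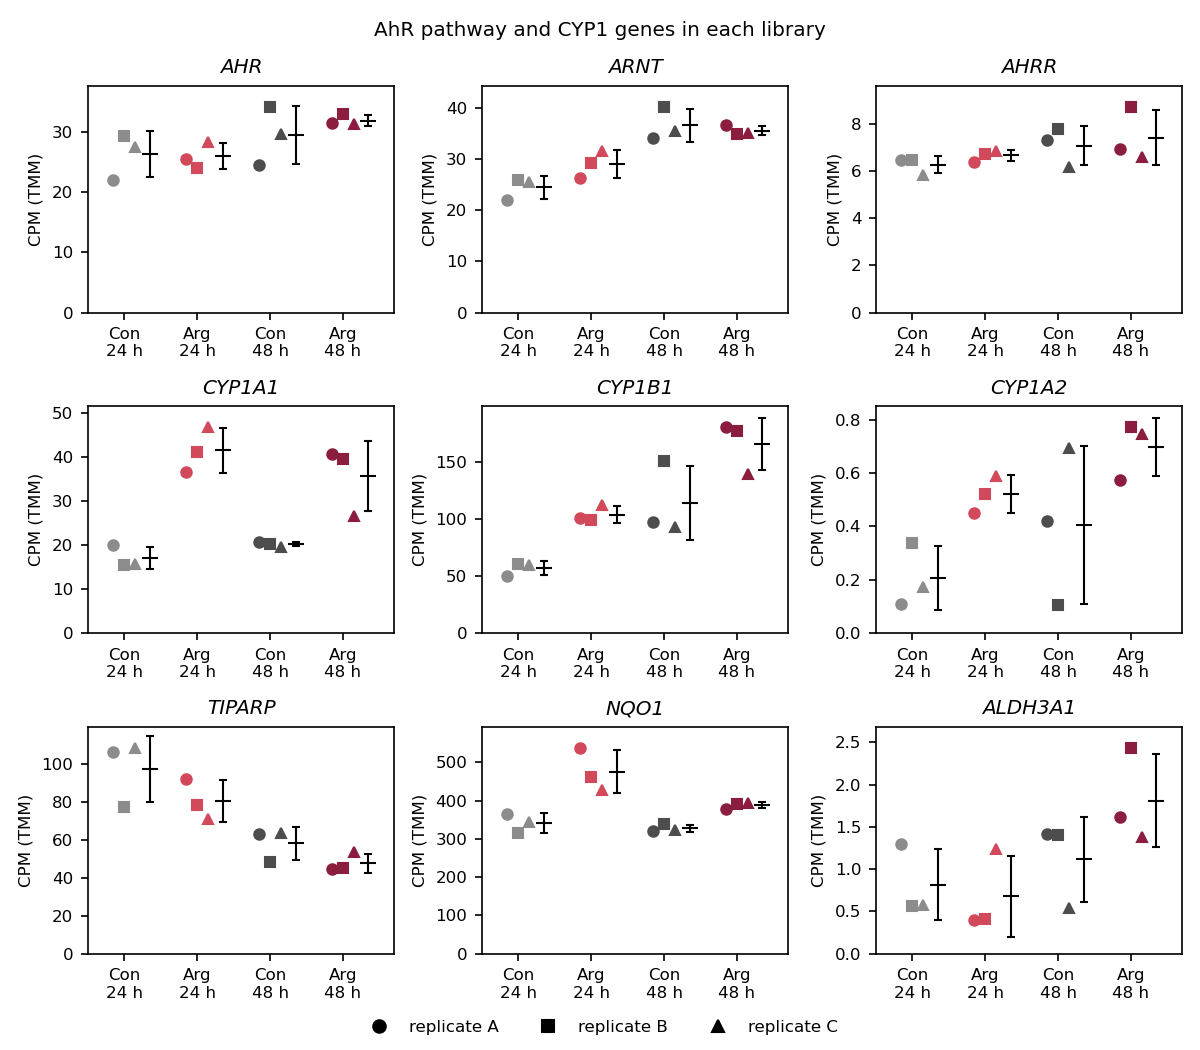
TMM-normalized CPM of the 9 members (vertical axes, from 0) in each of the 12 libraries by group, with circles, squares, and triangles for replicates A, B, and C. The black bars give the mean ± SD of 3 libraries. For CYP1A1, all Arg libraries lie above all controls at both times, while CYP1B1 in control replicate B at 48 h (152 CPM) lies among the 48 h Arg libraries.

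Gene positions are those of the count table, on GRCh38/hg38. The receptor, AHR (ENSG00000106546, chr7:16916359-17346152, plus strand), was at 22.1, 29.4, and 27.6 CPM in the 24 h controls and at 25.7, 24.1, and 28.4 CPM in the 24 h Arg libraries (replicates A, B, and C in this order, as in all lists of 3). These groups overlapped, and the Arg effect was −0.017 (SE 0.121, adjusted p = 0.951), with a 95% interval from −0.27 to 0.24. ARNT (ENSG00000143437, chr1:150809705-150876768, minus strand), the partner that AhR needs in order to bind DNA, was at 21.9, 26.0, and 25.6 CPM without Arg and at 26.2, 29.3, and 31.6 CPM with it. The ARNT groups did not overlap, as was the case for 12.9% of all genes in the higher direction, and the difference of 0.25 (SE 0.113) had an unadjusted p under 0.05 and did not pass after adjustment (adjusted p = 0.202). AHRR (ENSG00000063438, chr5:304176-438291, plus strand), which competes with AhR for ARNT and is induced by AhR in many cells, was at 6.49, 6.49, and 5.85 CPM without Arg and at 6.40, 6.75, and 6.87 CPM with it. Its groups overlapped, and the difference was 0.087 (SE 0.178, adjusted p = 0.817). AHRR shares part of its locus with PDCD6, which is on the same strand and had 20786 counts over the 12 libraries, against 1494 for AHRR, so the AHRR values depend on how shared reads were counted and are uncertain.

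CYP1A1 (ENSG00000140465, chr15:74719542-74725610, minus strand), the classical AhR target, oxidizes polycyclic hydrocarbons and endogenous ligands of the receptor. Its level was 19.97, 15.6, and 15.8 CPM in the 24 h controls and 36.5, 41.3, and 46.8 CPM in the 24 h Arg libraries. The lowest Arg library was well above the highest control, and the difference was 1.28 (SE 0.125, adjusted p = 7.50e-06), with a 95% interval from 1.01 to 1.54. CYP1B1 (ENSG00000138061, chr2:38066973-38109902, minus strand), the CYP1 enzyme best known outside the liver, was at 49.96, 60.8, and 60.2 CPM without Arg and at 101, 99.2, and 112 CPM with it. These groups were also separate, with a difference of 0.87 (SE 0.0955, adjusted p = 2.88e-05). CYP1B1 overlaps RMDN2 and CYP1B1-AS1 on the opposite strand, which had 1170 and 774 counts over the 12 libraries, against 24050 for CYP1B1.

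CYP1A2 (ENSG00000140505, chr15:74748844-74756202, plus strand), the liver enzyme that metabolizes caffeine, lies 23233 bases from CYP1A1 and in the opposite orientation. It had 2, 6, and 3 counts in the 24 h controls and 8, 9, and 11 counts in the 24 h Arg libraries, and the filter on low counts removed it from the test. The groups did not overlap. The pooled counts were 11 (exact 95% Poisson interval 5.49 to 19.7) and 28 (18.6 to 40.5), intervals that cover counting error only. Without the filter the difference was 1.30 (SE 0.848, adjusted p = 0.523). For every 100 CYP1A1 counts, 1.20 CYP1A2 counts were found in the 24 h controls, 1.25 with Arg at 24 h, 1.99 in the 48 h controls, and 1.94 with Arg at 48 h. The 2 genes are close paralogs, and reads of CYP1A1 assigned to CYP1A2 cannot be told apart from CYP1A2 RNA at these counts.

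TIPARP (ENSG00000163659, chr3:156673235-156706770, plus strand), an ADP-ribosyltransferase that AhR induces and that in turn marks AhR for loss, went the other way from CYP1A1 in its values. It was at 106, 77.5, and 109 CPM without Arg and at 92.3, 78.5, and 70.8 CPM with it at 24 h. The groups overlapped through control replicate B, and the difference of −0.28 (SE 0.121) had an unadjusted p under 0.05 and did not pass after adjustment (adjusted p = 0.183). Without that control library the difference was −0.42 (adjusted p = 0.0117). This was the only call of TIPARP among the 6 fits that left out a library (−0.42 to −0.19, adjusted p up to 0.490).

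NQO1 (ENSG00000181019, chr16:69706996-69726951, minus strand), a quinone reductase under the control of both AhR and NRF2, was the most abundant member. It was at 365, 315, and 344 CPM without Arg and at 538, 460, and 428 CPM with it at 24 h, so that the groups did not overlap. The difference was 0.48 (SE 0.0902, adjusted p = 0.00426). ALDH3A1 (ENSG00000108602, chr17:19737984-19748943, minus strand), an aldehyde dehydrogenase of the cornea and of AhR-activated epithelia, was near the limit of the counts. It had 24, 10, and 10 counts without Arg and 7, 7, and 23 counts with it, and the difference of −0.26 (SE 0.555, adjusted p = 0.829) had a 95% interval from −1.43 to 0.91. A change in ALDH3A1 of up to about these sizes was not detectable at this depth. When each of the 6 libraries was left out in turn, CYP1A1 (1.18 to 1.40), CYP1B1 (0.78 to 0.92), and NQO1 (0.37 to 0.55) passed each time. The mitochondrially encoded share also moved with Arg at 24 h, from 1.20 to 1.30% in the controls to 0.624 to 0.802% in the Arg libraries, and the 3 members passed with these genes left out. The differentiation markers overlapped, at 763 to 1324 CPM and 1027 to 1605 CPM, and their part was not tested.

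**Figure D3:**
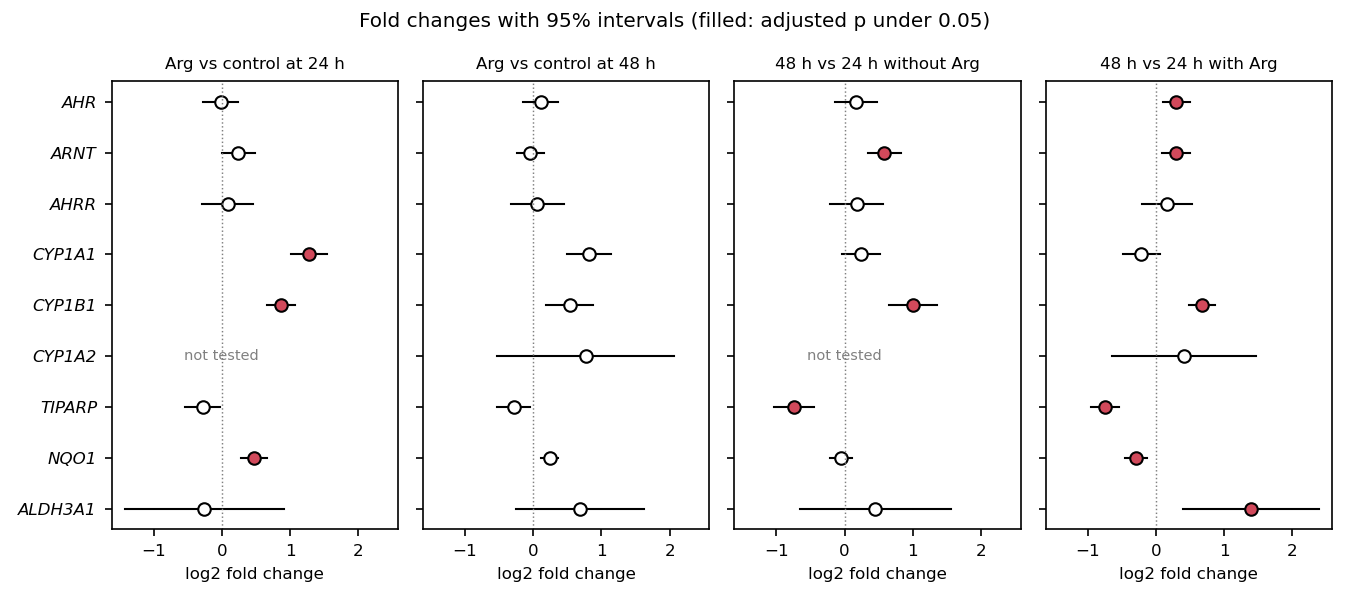
Log2 fold changes of the 9 members (horizontal axes) in the 4 comparisons, with 95% intervals from the edgeR fits, filled where the adjusted p was under 0.05. With Arg at 24 h, CYP1A1 (1.28), CYP1B1 (0.87), and NQO1 (0.48) are filled, and in the comparison of Arg and control at 48 h, 0 members are.

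At 48 h, CYP1A1, CYP1B1, and NQO1 were again higher with Arg in their means, by 1.76-fold, 1.45-fold, and 1.18-fold, and 0 of the 9 members passed an adjusted p of 0.05 with all 6 libraries in edgeR. Of all 14562 genes tested, 0.00% passed in the higher direction and 0.117% in the lower. At an unadjusted p under 0.05, 3 members were higher, where 5.94% of all genes were, and 1 was lower, where 7.49% were. DESeq2 called 2 members higher, CYP1A1 and NQO1, where it called 41 genes higher. It called 0 members lower, where it called 144 genes lower. Without control replicate B, 3 members passed in the higher direction (CYP1A1, CYP1B1, and NQO1), where 7.76% of 14854 genes did, and 1 passed in the lower (TIPARP), where 8.17% did.

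CYP1A1 was at 20.7, 20.3, and 19.7 CPM in the 48 h controls and at 40.8, 39.7, and 26.6 CPM in the 48 h Arg libraries. The groups did not overlap, as was the case for 8.55% of all genes in the higher direction, and Arg replicate C was the lowest of its group. The difference was 0.82 (SE 0.146, adjusted p = 0.0678), and CYP1A1 again had the smallest p of the genes that were higher with Arg. In CYP1A1, control replicate B lay between replicates A and C, and the effect was as large without it (0.82, adjusted p = 0.000206). Without Arg replicate C it was 0.99 (adjusted p = 0.00727). These 2 were the only calls of CYP1A1 among the 6 fits that left out a library (0.71 to 0.99, adjusted p up to 0.445).

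CYP1B1 depended on control replicate B. It was at 97.6, 152, and 93.4 CPM in the 48 h controls and at 181, 177, and 140 CPM with Arg, so that the groups overlapped through that library, which also had the highest sum of differentiation markers. The difference was 0.54 (SE 0.159, adjusted p = 0.201) with all libraries and 0.80 (SE 0.0848, adjusted p = 6.55e-07) without it. This was the only call of CYP1B1 among the 6 fits that left out a library (0.41 to 0.80, adjusted p up to 0.653). The part of the differentiation markers and of the mitochondrial share in this result was not tested. In RNA from whole cultures, a change in the number of cells of a type and a change in RNA per cell cannot be told apart.

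NQO1 was at 321, 337, and 324 CPM without Arg and at 378, 392, and 392 CPM with it. These groups were separate, with a difference of 0.24 (SE 0.0570, adjusted p = 0.145), which was 0.26 (adjusted p = 0.00150) without control replicate B. TIPARP was at 62.9, 48.1, and 63.4 CPM without Arg and at 44.6, 45.1, and 53.6 CPM with it. The difference was −0.29 (SE 0.112, adjusted p = 0.299) with all libraries and −0.41 (adjusted p = 0.00144) without control replicate B, which was the lowest of the controls. For NQO1 and for TIPARP, this was the only call among the 6 fits that left out a library. Over these fits the adjusted p reached 0.624 for NQO1 and 0.732 for TIPARP.

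**Figure D4:**
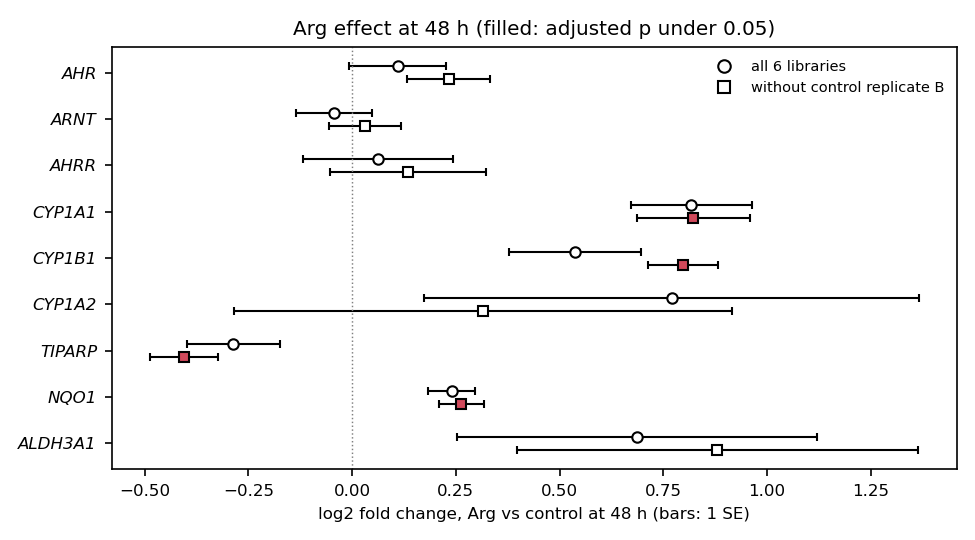
Log2 fold change of each member with Arg at 48 h (horizontal axis, bars of 1 SE), with all 6 libraries (circles) and without control replicate B (squares), filled where the adjusted p was under 0.05. CYP1B1 moves from 0.54 to 0.80 and TIPARP from −0.29 to −0.41, while CYP1A1 stays at 0.82.

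The receptor group did not pass at 48 h with or without that library. AHR was at 24.6, 34.3, and 29.8 CPM without Arg and at 31.5, 33.1, and 31.3 CPM with it, ARNT was at 34.1, 40.3, and 35.5 CPM and at 36.6, 35.0, and 35.1 CPM, and AHRR was between 6.16 and 8.74 CPM in these 6 libraries. The groups of all 3 overlapped, with differences of 0.11 for AHR, −0.045 for ARNT, and 0.063 for AHRR and adjusted p-values of 0.717, 0.865, and 0.909. Without control replicate B, the differences were 0.23, 0.031, and 0.13, with adjusted p-values of 0.120, 0.855, and 0.688. CYP1A2 had 8, 2, and 13 counts without Arg and 11, 13, and 13 with it, and ALDH3A1 had 27, 27, and 10 counts without Arg and 31, 41, and 24 with it. For CYP1A2 the difference was 0.77 (adjusted p = 0.606), and 0.32 (adjusted p = 0.779) without control replicate B. For ALDH3A1 it was 0.69 (adjusted p = 0.524), and 0.88 (adjusted p = 0.236) without that library.

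Whether the Arg effect itself differed between 24 and 48 h was tested as an interaction over all 12 libraries. For CYP1A1 the effect at 48 h minus that at 24 h was −0.46 (SE 0.202, adjusted p = 0.708), and for NQO1 it was −0.24 (SE 0.111, adjusted p = 0.712). For CYP1B1 it was −0.33 (adjusted p = 0.800) and for TIPARP −0.0086 (adjusted p = 0.998). Without control replicate B, the value was −0.46 for CYP1A1, −0.21 for NQO1, −0.074 for CYP1B1 (adjusted p = 0.926), and −0.13 for TIPARP. In that fit 0 of the 9 members passed, where 28 of all genes tested were higher and 18 lower. With all 12 libraries in edgeR, 0 of the 9 members passed after adjustment in either direction, where 0.0132% of 15148 genes were higher and 0.00% lower. In DESeq2, 0 members passed as well, where 8 genes were higher and 7 lower. At an unadjusted p under 0.05, 0 members were higher and 2 were lower, CYP1A1 and NQO1, where 3.06% of all genes were higher and 3.80% lower.

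Between 24 and 48 h of culture, CYP1B1 and ARNT rose and TIPARP fell both without and with Arg. These comparisons use the same libraries as those of Arg and control. Without Arg, 2 of 8 members tested were higher at 48 h, where 9.90% of 14449 genes were, and 1 was lower, where 10.04% were. CYP1B1 went from 57.0 ± 6.09 CPM (SD, n = 3) to 114 ± 32.4 CPM, a difference of 1.01 (SE 0.161, adjusted p = 0.00299). ARNT went from 24.5 ± 2.23 to 36.6 ± 3.24 CPM, a difference of 0.58 (SE 0.111, adjusted p = 0.00546). TIPARP went from 97.5 ± 17.4 to 58.2 ± 8.72 CPM, a difference of −0.74 (SE 0.137, adjusted p = 0.00495). The 3 calls held without control replicate B, where 7.81% of genes were higher and 8.60% lower, with CYP1B1 at 0.75, ARNT at 0.51, and TIPARP at −0.62. CYP1A1 and NQO1, which rose with Arg at 24 h, did not pass (0.24 and −0.056, adjusted p = 0.207 and 0.634).

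With Arg, 4 of 9 members were higher at 48 h than at 24 h, where 14.3% of 14398 genes were, and 2 were lower, where 14.0% were. CYP1B1 rose by 0.67 (SE 0.0901, adjusted p = 1.65e-05) and TIPARP fell by 0.75 on the log2 scale (SE 0.0983, adjusted p = 1.31e-05). NQO1 went from 476 ± 56.7 to 387 ± 8.21 CPM (SD, n = 3), a difference of −0.29 (SE 0.0746, adjusted p = 0.00585). AHR (0.30, adjusted p = 0.0268), ARNT (0.29, adjusted p = 0.0266), and ALDH3A1 (1.39, adjusted p = 0.0345) passed narrowly, and each of these 3 passed in 2 of the 6 fits that left out a library. The call of AHR was lost without Arg replicate B at 24 h or any of the 48 h Arg libraries (adjusted p up to 0.0999), that of ARNT without Arg replicate A at 24 h or any of the 48 h Arg libraries (up to 0.0963), and that of ALDH3A1 without Arg replicate A or B at either time (up to 0.162). The level of CYP1A1 with Arg was 41.5 ± 5.14 CPM at 24 h and 35.7 ± 7.90 CPM at 48 h, groups that overlapped (−0.22, adjusted p = 0.233).

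Per kilobase of exon, the members spanned levels from among the highest of the tested genes to the edge of detection. As a mean over the 12 libraries, NQO1 was at 118 CPM per kb (range 96.7 to 165), above 97.9% of the 15148 genes tested over all libraries. CYP1B1 followed at 18.3 (8.31 to 30.1), TIPARP at 14.1 (8.83 to 21.5), CYP1A1 at 8.34 (4.53 to 13.6), ARNT at 4.82 (3.36 to 6.18), and AHR at 3.53 (2.73 to 4.24) CPM per kb. AHRR was at 0.894 (0.761 to 1.14), ALDH3A1 at 0.282 (0.1003 to 0.622), and CYP1A2 at 0.168 (0.0380 to 0.283) CPM per kb. The ranges of NQO1 and of AHRR did not overlap those of their neighbors in this order, while CYP1B1 and TIPARP, TIPARP and CYP1A1, CYP1A1 and ARNT, ARNT and AHR, and ALDH3A1 and CYP1A2 overlapped. AHR stood near the middle of the tested genes, above 49.9% of them.

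A further 107 genes were tested at 24 h, from lists of pathway genes and of genes related to the members. With Arg, 6 of them were higher and 9 lower, where 2.79% and 3.84% of all 14279 genes were. The lists at 24 h are read against these shares, and at an unadjusted p under 0.05 against 10.8% higher and 11.9% lower. Among 8 genes of the cytosolic complex that holds AhR before it binds a ligand, 0 passed in either direction in edgeR (1 higher and 0 lower at an unadjusted p under 0.05), and the median difference was −0.0041, against 0.0030 over all genes. HSP90AB1, a chaperone of this complex, came nearest at 0.24 (adjusted p = 0.0508). Among the enzymes of tryptophan metabolism, which make or use up ligands, 6 of 12 were tested, and IDO1, IDO2, and TDO2 had means of 0 CPM in both groups. KYNU, the kynureninase, fell from 21.6 to 11.6 CPM in the mean (−0.89, adjusted p = 0.00196). The list median was −0.26, and what this means for ligand supply was not tested. Among 18 coactivators and corepressors, 0 passed (2 higher and 1 lower at an unadjusted p under 0.05), with values of 0.35 for NCOA2 (adjusted p = 0.0831) and −0.84 for ESR1 (adjusted p = 0.154).

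The relatives of AHR and ARNT in the bHLH-PAS family gave 3 lower and 0 higher of 9 tested, where 3.84% of all genes were lower, with a median of −0.21. ARNT2, the neural counterpart of ARNT, went from 4.32 to 1.03 CPM (−2.07, adjusted p = 0.00143). EPAS1, a hypoxia-inducible factor, fell by 0.45 (adjusted p = 0.00262), and BMAL1, a clock factor listed as ARNTL, fell by 0.50 on the log2 scale (adjusted p = 0.00840). Among 18 tested genes reported as AhR-induced in other cells, 0 were higher and 2 lower after adjustment (2 higher and 4 lower at an unadjusted p under 0.05). These 2 were AREG, an epidermal growth factor receptor ligand (−0.83, adjusted p = 0.0281), and PTGS2, the inducible cyclooxygenase (−1.09, adjusted p = 0.0372). The median of the list was 0.075.

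The NRF2-driven genes that share regulation with NQO1 were divided at 24 h, with 4 of 18 higher and 2 lower, where 2.79% and 3.84% of all genes were. GCLC, which catalyzes the first step of glutathione synthesis, rose by 0.58 (adjusted p = 0.000980), and SLC7A11, the cystine carrier, rose by 0.57 (adjusted p = 0.00474). The aldo-keto reductases AKR1C1 (−0.95, adjusted p = 0.0124) and AKR1B10 (−1.78, adjusted p = 0.0268) fell, the latter from 1.99 to 0.576 CPM in the mean. Aldo-keto reductases have near-identical family members, so their counts are uncertain. A list of 7 electron donors and other partners of P450 enzymes gave 1 call each way. PGRMC2, a heme-binding protein and not itself a donor, rose by 0.37 (adjusted p = 0.0170). POR, the reductase that supplies CYP1 enzymes with electrons, fell by 0.32 on the log2 scale (adjusted p = 0.0337). Of 6 tested relatives of ALDH3A1 and NQO1, ALDH3B1 rose by 0.88 (adjusted p = 0.0142), and among 17 tested PARP family genes related to TIPARP 0 passed in edgeR (3 higher and 3 lower at an unadjusted p under 0.05).

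**Figure D5:**
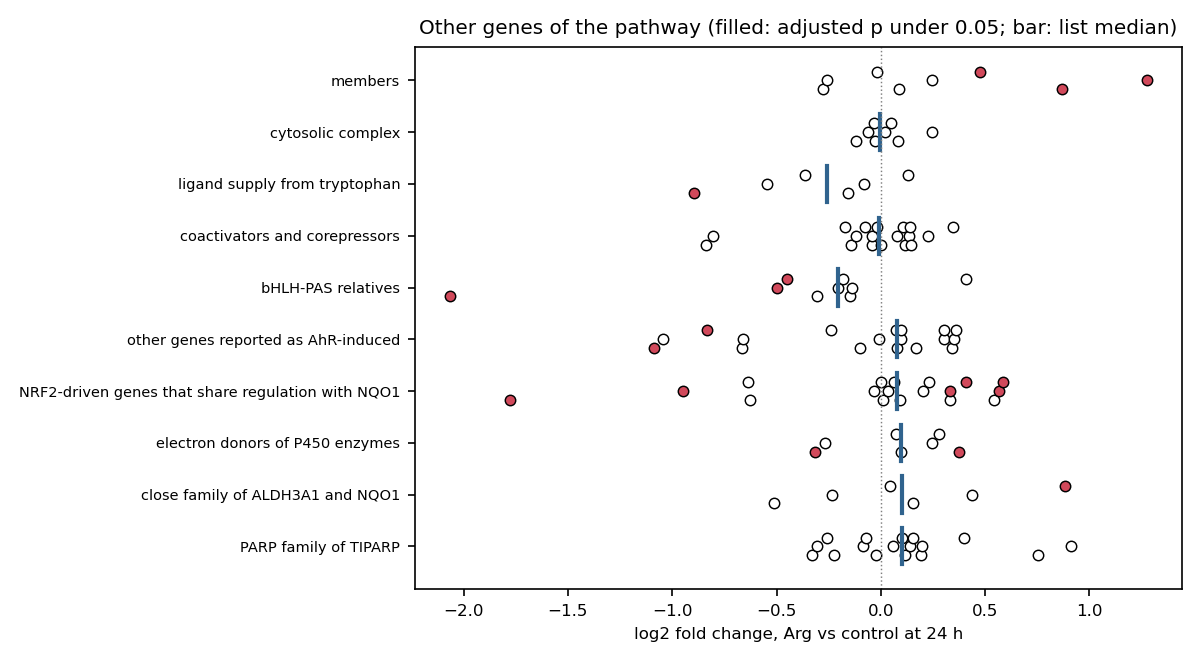
Log2 fold change with Arg at 24 h (horizontal axis) of each tested member and of each tested gene in 9 lists of related genes, filled where the adjusted p was under 0.05, with a blue bar at the median of each list. The 3 filled members lie at 0.48, 0.87, and 1.28, the list medians lie between −0.26 and 0.10, and the 3 filled bHLH-PAS relatives lie below 0.

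At 48 h, 0 of the 109 tested genes of these 9 lists passed with all 6 libraries in edgeR. At an unadjusted p under 0.05, 8 were higher and 11 lower, where 5.94% and 7.49% of all 14562 genes were. The NRF2 list had 17 of 18 differences above 0, where 7324 of 14562 were over all genes, with a median of 0.23 against 0.0018. At an unadjusted p under 0.05, 6 of its 18 genes were higher, where 5.94% of all genes were. Without control replicate B, where 7.76% of all genes were higher and 8.17% lower, 4 of its genes passed in the higher direction and 0 in the lower: TALDO1, SLC7A11, GCLC, and ME1. The list of reported AhR targets then had, of 19 tested, 1 higher (OVOL1, an epithelial transcription factor) and 4 lower (SLC7A5, AREG, EREG, and CYP2S1). KYNU had a value of −0.49 (adjusted p = 0.272) with all libraries and of −0.70 (adjusted p = 0.000187) without that library. ARNT2 had a value of −1.14 (adjusted p = 0.239) with all libraries and of −1.43 (adjusted p = 0.00654) without that library. Of the other lists, 4 coactivators and corepressors were higher and 1 lower without it, and 2 P450 donors or partners (PGRMC2 and CYB5R1) were higher. Lower were 2 genes each of the cytosolic complex, the tryptophan enzymes, the bHLH-PAS family, and the relatives of ALDH3A1 and NQO1, and 1 PARP family gene went each way.

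Between 24 and 48 h without Arg, 3 of 8 genes of the cytosolic complex were lower and 0 higher, where 10.04% of all genes were lower, and the same numbers passed without control replicate B. With Arg, 4 of 8 were lower and 0 higher, where 14.0% of all genes were lower. HSPA8, a constitutive heat shock protein, fell by 1.15 (adjusted p = 0.000109) without Arg and by 1.24 (adjusted p = 1.35e-09) with it on the log2 scale. Coactivators and corepressors gave 5 higher and 1 lower of 18 without Arg (2 higher and 1 lower without control replicate B), among them NCOR1 (0.57), and 8 higher and 1 lower with it, among them NCOA3 (0.45) and NCOA2 (0.53). Of the reported AhR targets, AREG and EREG, both growth factors, were lower at 48 h without Arg (−1.36 and −1.41) and with it (−1.06 and −1.39). The PARP relatives of TIPARP gave 4 higher and 1 lower of 17 without Arg, where 9.90% and 10.04% of all genes were, and 4 higher and 0 lower with it, where 14.3% and 14.0% were, with PARP10 at 1.17 and 0.80, whereas TIPARP itself fell in both.

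The genes whose profile over the 12 libraries was most like that of CYP1A1, by the root-mean-square (RMS) difference of log2 CPM centered on each gene's own mean, were FOXD2-AS1 (0.222), MYL5 (0.225), TRNP1 (0.297), RPS26P6 (0.305), and STAG3 (0.311). FOXD2-AS1, a long noncoding RNA, had group means of 4.95 and 8.57 CPM without and with Arg at 24 h and of 4.74 and 7.88 CPM at 48 h. RPS26P6 is a pseudogene whose reads could come from related genes. Among the 15147 other genes, NQO1 ranked 137 by this measure (0.413), CYP1B1 ranked 1152 (0.493), and TIPARP ranked 12955 (0.814). The genes nearest to CYP1B1 were KRT19 (0.181), STAT2 (0.184), MYCL (0.185), DNAJC6 (0.191), and TSC22D3 (0.192). KRT19, a keratin of simple epithelia, had group means of 2059 and 3434 CPM without and with Arg at 24 h and of 4441 and 5435 CPM at 48 h, so that, like CYP1B1, its mean was higher with Arg and higher at 48 h. The profiles share libraries, depth, and control replicate B, and the RMS differences are a description.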

How the data were processed

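RNA sequencing data of TIGK cells (4 groups, 3 libraries each) were used. The authors filtered reads with fastp, mapped them with STAR to GRCh38/hg38, and counted them per gene with featureCounts. The deposited counts are raw integers, with coordinates and exonic lengths. Tool versions, annotation release, and strand setting are not given in the sources used here, so overlapping genes are uncertain.

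Groups came from the labels. Each pair of groups was fitted alone and unblocked by edgeR 4.0.16 (R 4.3.3) after filterByExpr and TMM scaling, and tested by quasi-likelihood. P-values were adjusted over all genes tested (Benjamini-Hochberg, threshold 0.05). The interaction was tested in a model of all 12 libraries. Levels are TMM-normalized CPM, and profiles used log2(CPM + 0.1). SE is the absolute log2 fold change divided by the square root of F. For any 1 gene in groups of 3, the smallest p of an exact permutation test is 0.1. Scripts were tested on simulated data.

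The members and gene lists were chosen with earlier results of these data known. Besides members, named genes are the at most 4 of a list with the smallest p among those that passed (2 where none did), the 5 nearest profiles of CYP1A1 and CYP1B1, and genes that overlap a member. Without control replicate B at 48 h, all genes that passed are named for the NRF2 and AhR target lists, and counts are given for the others. Alternatives were DESeq2 1.42.0, scaling by its size factors or by library size, no filter or a minimum of 10 counts throughout, 1 model of all 12 libraries, the replicate block, removal of mitochondrially encoded genes, and omission of each library.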

Additional observations from a re-analysis of the deposited data

How the results depend on the processing

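With all libraries kept, CYP1A1, CYP1B1, and NQO1 at 24 h passed under all 8 alternatives (1.27 to 1.28, 0.87 throughout, and 0.47 to 0.48). At 48 h, genes higher with Arg numbered 0, and 41 with DESeq2, 199 without the filter, 4 with all 12 libraries in 1 model, and 43 with the replicate block. Genes lower numbered 17, and 144, 374, 37, and 141. Members higher numbered 0, and 2, 3, 1, and 2. The 2 members called with the replicate block were CYP1A1 (0.80, adjusted p = 0.00349) and CYP1B1 (0.56, adjusted p = 0.00641). Correlations of same-lettered deviations lay between −0.115 and 0.225. Libraries of different letters were not compared in this way, so whether the letters pair the libraries was not tested. Members higher at 48 h with Arg numbered 4, and 2 with all 12 libraries in 1 model, where AHR (adjusted p = 0.0923) and ALDH3A1 (adjusted p = 0.0602) were lost. Genes with a higher interaction numbered 2, and 8 with DESeq2, 51 without the filter, and 1 without mitochondrially encoded genes. Genes with a lower interaction numbered 0, and 7 with DESeq2 and 37 without the filter. NQO1 over time without Arg reversed with library size only (0.0045, adjusted p = 0.973). The cause of these moves was not tested.

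Leaving out each library in turn gave 126 to 647 genes higher and 233 to 882 lower with Arg at 24 h, 0 to 1152 and 5 to 1213 at 48 h, 422 to 1585 and 406 to 1719 over time without Arg, and 0 to 28 and 0 to 18 for the interaction. Members lower at 24 h numbered 0 to 1. At 48 h, members higher numbered 0 to 3 and lower 0 to 1. Members higher over time with Arg numbered 1 to 4. The sign changed, with no call, for AHR (−0.13 to 0.066) and ALDH3A1 (−1.02 to 0.25) at 24 h, for AHR (−0.0063 to 0.23), AHRR (−0.068 to 0.14), and ARNT (−0.094 to 0.031) at 48 h, and in the interaction for AHRR (−0.15 to 0.053), CYP1A2 (−1.06 to 0.082), and TIPARP (−0.13 to 0.14). The low counts of CYP1A2 and ALDH3A1 limit what can be detected.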

Other observations

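The difference of the Arg effect between 24 and 48 h was also computed for the genes of the lists, and 0 of the 110 tested passed after adjustment in edgeR. At an unadjusted p under 0.05, 9 were higher and 6 lower, where 3.06% and 3.80% of all 15148 genes were. The smallest unadjusted p-values among them belonged to AKR1C1 (1.28, SE 0.298, adjusted p = 0.287), EPAS1 (0.39, SE 0.0964, adjusted p = 0.321), ALDH3B1 (−1.02, SE 0.254, adjusted p = 0.321), and AKR1B10 (1.95, SE 0.490, adjusted p = 0.321). AKR1B10, an aldo-keto reductase, had group means of 1.99 and 0.576 CPM without and with Arg at 24 h and of 4.45 and 5.03 CPM at 48 h. With Arg it rose by 3.11 (SE 0.380, adjusted p = 6.31e-06) between the times. ALDH3B1, an aldehyde dehydrogenase of membrane lipids, had group means of 8.55 and 15.8 CPM at 24 h and of 22.1 and 20.1 CPM at 48 h.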
